A study of Mus musculus with 6 samples.

Results

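Neuronal RNA-binding proteins were described through 10 genes of 4 families: Elavl2, Elavl3 and Elavl4, Celf3, Celf4, Celf5 and Celf6, Nova1 and Nova2, and Ptbp2. All probe sets annotated to exactly 1 of these symbols were taken, which gave 23 of the 45101 probe sets on the array. The 10 genes were among 18193 with a probe set of their own. RNA came from C57BL/6 mouse embryos of mixed sex at embryonic day 10.5, with no genetic change or treatment given in the labels. The midbrain floor plate, a strip of ventral midline cells, was compared with the ventral lateral tissue beside it, dissected so that the pieces did not overlap. Each region had 3 samples, each pooled from 6 embryos. The labels do not say whether pools of the 2 regions shared embryos, so a p-value here speaks of the spread among the 6 pools. Whole pieces of tissue were measured, so fewer cells of a type and less RNA per cell cannot be told apart in any of the values.

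Proteins of these families bind short motifs in RNA and set how transcripts are spliced, stabilised and translated as neural progenitors become neurons. The Elav-like proteins bind AU-rich stretches, mostly in 3-prime untranslated regions, and are classic markers of neuronal fate. CELF proteins bind GU-rich RNA, and Nova proteins bind clusters of a short motif with a CA core around neuronal exons. Ptbp2 takes over from its relative Ptbp1 in newborn neurons, after Ptbp1, which blocks productive splicing of Ptbp2 transcripts, declines.

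Each deposited value gives a probe set relative to the median of its values on the 6 arrays, read here as log2 with more RNA giving a higher value. A value of 0 is therefore the middle of the 6 arrays and not absence, and no gene's level can be set against another's. Differences are floor plate minus ventral lateral. They were tested with limma over all 45037 probe sets that are not controls, with Benjamini-Hochberg adjustment and a threshold of 0.05. Markers of the 2 regions were listed with earlier results of these data known, so they give no independent check of the labels. Floor plate markers had 15 of 19 probe sets higher in floor plate and none lower. Ventral lateral markers had 10 of 15 lower and none higher (10 and 2 at an unadjusted limma p under 0.05). Those 2 were the probe sets of Sim2, named after its values were seen, at 1.17 and 2.43 (limma adjusted p of 0.057 and 0.084). Their values were wholly higher in floor plate, and 2 probe sets of the list passed as higher with the replicate block and without ventral lateral replicate 2. The array medians over all probe sets lay between -0.0030 and 0.0045, and 3 arrays per region limit the precision.

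The RNA-binding protein genes were lower in floor plate where they differed between the regions. Celf5 fell 2.16-fold and Elavl2 up to 2.18-fold, depending on the probe set, and Celf6 missed the threshold narrowly. No probe set of the remaining genes passed. Nova1 and Elavl4 had positive differences on all their probe sets, the widest 0.32. Of the 23 probe sets 5 passed as lower in floor plate and 0 as higher, that is 21.7% called. Over all probe sets 2.01% passed as lower and 2.70% as higher, 4.71% in all. The 5 comprised 4 of the 5 probe sets of Elavl2 and the single probe set of Celf5. At an unadjusted limma p under 0.05 there were 9 lower member probe sets and 1 higher, against 3658 lower and 3770 higher among all 45037. The floor plate values lay wholly below the ventral lateral values for 10 member probe sets and wholly above them for 1, against 11.0% and 11.5% of all probe sets, 22.4% in both directions. The median difference was -0.27 over the 23 probe sets and -0.0040 over all probe sets.

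**Figure D1:**
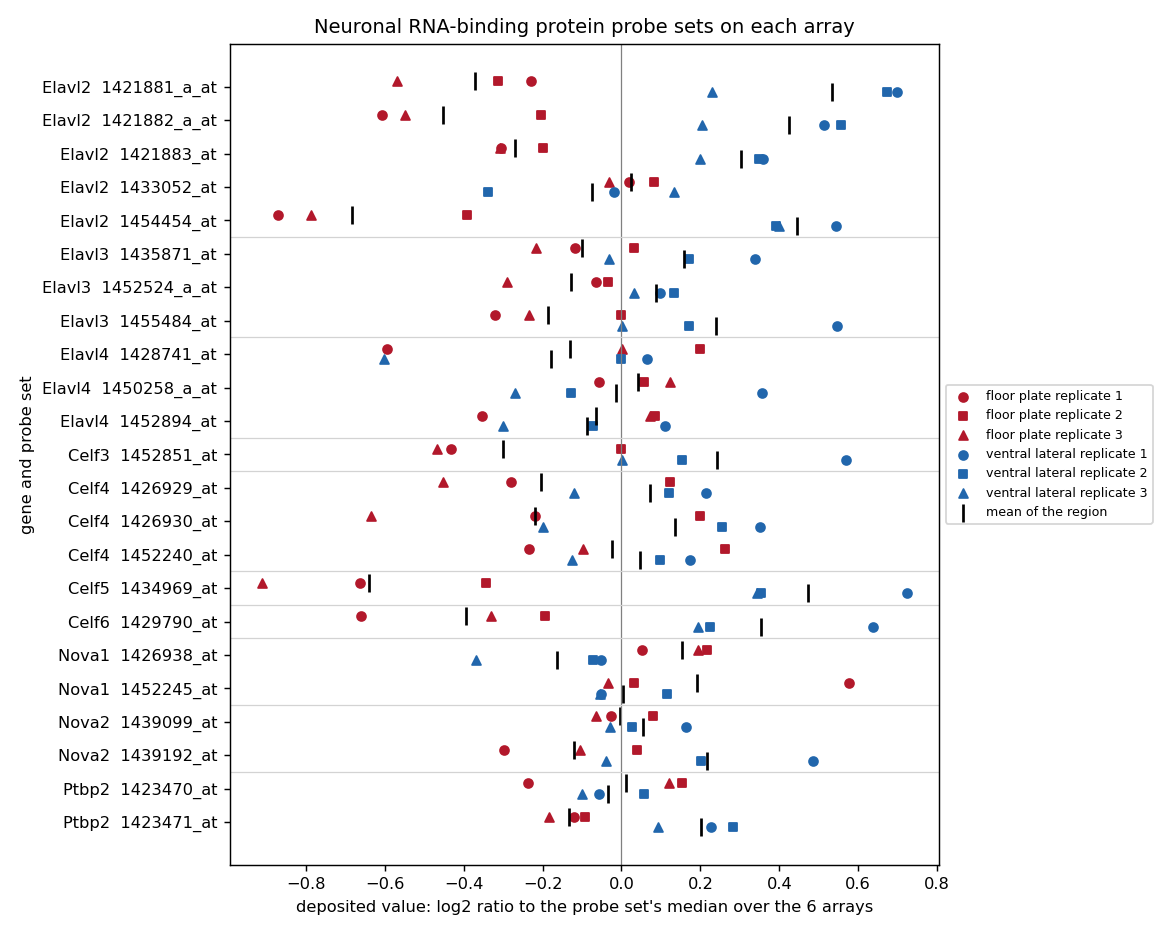
Deposited values (log2 ratio to the probe set's median over the 6 arrays, x axis) of the 23 member probe sets (y axis), with 1 symbol per array, red for floor plate, blue for ventral lateral and a black bar for each region's mean. The colours are apart, some only just, for 10 probe sets with floor plate lower, among them 4 of Elavl2, Celf5 and Celf6. For 1 probe set of Nova1 they are apart with floor plate higher, and they overlap for all 3 Elavl4 probe sets.

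Shown are the stretches before the start sites of Elavl2, Celf5 and Celf6, the genes with the most negative differences. That of their relative Elavl3 is shown beside them, and neither Celf6 nor Elavl3 passed in the main fit. The stretches are RefSeq sequences of the 250 bases before the outermost listed start, read 5′ to 3′ on the gene's strand. They are from build GRCm38.p6, a build used for sequence alone. Capitals mark a CAGCTG or CATCTG hexamer on either strand, forms of the E-box that proneural factors can bind.
Elavl2 (chr4:91399985-91400234, minus strand): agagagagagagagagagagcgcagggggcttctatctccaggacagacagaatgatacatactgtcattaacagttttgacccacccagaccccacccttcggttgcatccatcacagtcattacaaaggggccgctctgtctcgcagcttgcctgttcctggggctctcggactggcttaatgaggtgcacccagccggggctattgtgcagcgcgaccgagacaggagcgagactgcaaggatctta
Elavl3 (chr9:22052024-22052273, minus strand): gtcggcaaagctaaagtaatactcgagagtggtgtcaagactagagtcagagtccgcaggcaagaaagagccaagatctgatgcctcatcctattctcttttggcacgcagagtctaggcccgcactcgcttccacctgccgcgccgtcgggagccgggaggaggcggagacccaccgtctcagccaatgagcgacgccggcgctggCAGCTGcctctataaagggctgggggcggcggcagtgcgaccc
Celf5 (chr10:81482700-81482949, minus strand): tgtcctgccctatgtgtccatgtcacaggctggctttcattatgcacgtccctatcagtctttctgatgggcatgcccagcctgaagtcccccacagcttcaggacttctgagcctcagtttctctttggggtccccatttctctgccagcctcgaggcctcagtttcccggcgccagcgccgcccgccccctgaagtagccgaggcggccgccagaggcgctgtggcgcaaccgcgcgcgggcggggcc
Celf6 (chr9:59578087-59578336, plus strand): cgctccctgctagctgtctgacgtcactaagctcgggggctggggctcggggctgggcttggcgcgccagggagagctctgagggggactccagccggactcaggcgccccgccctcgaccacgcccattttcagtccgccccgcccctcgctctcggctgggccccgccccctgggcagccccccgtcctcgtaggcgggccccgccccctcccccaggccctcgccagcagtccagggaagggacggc
Elavl3 held 1 CAGCTG in this window and the other 3 genes held neither hexamer there. Start sites were listed for 9 of the 10 genes. Over their 28 start sites, many of which overlap, 46.4% of the windows held either hexamer, against 25.5% of all 32851 windows of the same length. None of the 6 Elavl2 windows did, 1 of 5 did for Celf5, and 1 of 2 for Celf6. Most of the windows with a hexamer were of Celf3 (6 of 7) and Elavl4 (3 of 4), neither of which passed. The median GC content was 59.6% for the members' windows and 52.4% for all windows. A match is a description of letters and not a measured site.

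Among the Elav-like genes, Elavl2 carried the difference. It encodes HuB, an mRNA-stabilising protein found in neurons and in some progenitors. On probe set 1454454_at the values were -0.87, -0.39 and -0.79 in floor plate replicates 1 to 3, and 0.54, 0.39 and 0.40 in ventral lateral replicates 1 to 3. All floor plate arrays lay below all ventral lateral arrays, and floor plate replicate 2 was nearest to the other region. The means were -0.68 ± 0.26 and 0.44 ± 0.09 (SD, n = 3 each), and Elavl2 was 2.18-fold lower in floor plate (log2 difference -1.13, SE 0.14, limma adjusted p = 0.0043). This probe set passed in all 15 alternatives that tested it, with adjusted p between 0.0019 and 0.024.

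A further 3 Elavl2 probe sets, designed from a second sequence record and so not independent of each other, also passed. On 1421881_a_at the floor plate values were -0.23, -0.31 and -0.57 and the ventral lateral values 0.70, 0.67 and 0.23. On 1421882_a_at they were -0.61, -0.20 and -0.55 against 0.51, 0.56 and 0.20. On 1421883_at they were -0.30, -0.20 and -0.31 against 0.36, 0.35 and 0.20. The regions did not overlap on any of the 3, and ventral lateral replicate 3 was the lowest of its region on each. Elavl2 was 1.87-fold, 1.84-fold and 1.49-fold lower in floor plate on them, with limma adjusted p of 0.019, 0.016 and 0.016. With 1 array fewer these calls were often lost. 1421881_a_at missed the threshold without floor plate replicate 3 or without ventral lateral replicate 1 or 2 (limma adjusted p of 0.062 to 0.076), and the other 2 missed it in those fits and without floor plate replicate 1 (0.057 to 0.070). The count of lower member probe sets was then 2.

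The fifth Elavl2 probe set went its own way. On 1433052_at the floor plate values were 0.02, 0.08 and -0.03 and the ventral lateral values -0.02, -0.34 and 0.13. The regions overlapped, and the difference was 0.10 (95% interval -0.21 to 0.41, limma adjusted p = 0.80). It was designed from the same record as 1454454_at, so what parts of the Elavl2 transcript the probe sets read was not tested.

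Elavl3, which encodes HuC, an early marker of postmitotic neurons, had smaller differences of the same sign on its 3 probe sets. On 1455484_at the values were -0.32, -0.0006 and -0.24 in floor plate and 0.55, 0.17 and 0.0006 in ventral lateral replicates 1 to 3. Floor plate replicate 2 and ventral lateral replicate 3 met near 0, so the regions were only just apart. The difference was -0.42 (95% interval -0.80 to -0.05, limma adjusted p = 0.23). The other 2 probe sets, 1435871_at and 1452524_a_at, had differences of -0.26 and -0.22 (limma adjusted p of 0.37 each), the second with regions that did not overlap. None passed in any alternative.

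Elavl4 encodes HuD, which is tied to neurite growth and GAP-43 mRNA stability. Its 3 probe sets differed by 0.05, 0.05 and 0.02 between the regions, none of which passed. On 1428741_at the values were -0.59, 0.20 and 0.0016 in floor plate and 0.06, -0.0016 and -0.60 in ventral lateral replicates 1 to 3. Here the spread lay within each region, with floor plate replicate 1 and ventral lateral replicate 3 low and the others near or above 0. The 95% interval of this difference, -0.52 to 0.62, is wide, so a change of moderate size in either direction was not detectable with these arrays. The intervals of 1450258_a_at (-0.33 to 0.44) and 1452894_at (-0.35 to 0.39) were narrower.

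**Figure D2:**
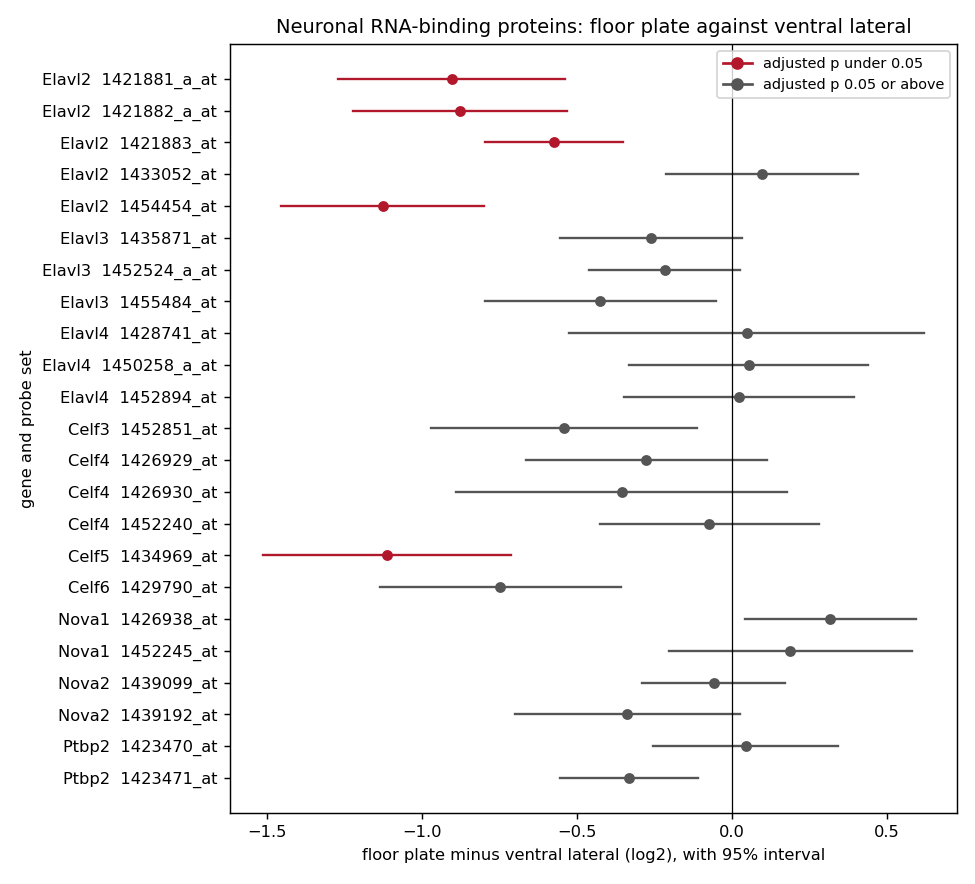
Difference between the regions (floor plate minus ventral lateral, log2, x axis) for each member probe set (y axis), with the 95% interval of the limma fit and red for an adjusted p under 0.05. The 5 red intervals, 4 of Elavl2 and 1 of Celf5, lie wholly below 0, while those of Elavl4 are centred near it.

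The CELF members, regulators of alternative splicing and translation that are enriched in the nervous system, all had negative differences, and Celf5 passed. Celf5 was at -0.66, -0.34 and -0.91 in floor plate and 0.72, 0.35 and 0.34 in ventral lateral replicates 1 to 3 on 1434969_at. The regions lay far apart, with floor plate replicate 2 again the highest of its region and ventral lateral replicate 1 the highest of all. The means were -0.64 ± 0.28 and 0.47 ± 0.22 (SD, n = 3 each), a 2.16-fold lower value in floor plate (log2 difference -1.11, SE 0.17, limma adjusted p = 0.011). Without floor plate replicate 1 the limma adjusted p was 0.054, and it passed in each of the other 5 fits that left out a sample.

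Celf6 was at -0.66, -0.19 and -0.33 in floor plate and 0.64, 0.23 and 0.19 in ventral lateral replicates 1 to 3 on 1429790_at. The regions did not overlap, and replicate 1 was the most extreme array on both sides. The difference was -0.75 (SE 0.17, 95% interval -1.14 to -0.36) with a limma adjusted p of 0.0504, just over the threshold. With genes in place of probe sets as the unit, Celf6 passed (limma adjusted p = 0.029 on gene means, where 8.13% of 18193 genes were called). On probe sets it also passed after quantile normalization (0.040), without probe sets ending in _x_at or _s_at (0.049) and over probe sets with 1 gene symbol (0.043). With the replicate block its limma adjusted p was 0.11, and it failed in all 6 fits that left out a sample (0.060 to 0.14).

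Celf3 and Celf4 did not pass. Celf3 was at -0.43, -0.0008 and -0.47 in floor plate and 0.57, 0.15 and 0.0008 in ventral lateral replicates 1 to 3. The regions touched near 0, and the difference was -0.54 (95% interval -0.97 to -0.11, limma adjusted p = 0.19). Celf4 had 3 probe sets from 1 record with differences of -0.28, -0.36 and -0.07 (limma adjusted p of 0.49 to 0.88). On all 3, floor plate replicate 2 lay among or above the ventral lateral arrays.

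Nova1 and Nova2 encode splicing factors of neurons. Nova1 was at 0.05, 0.22 and 0.19 in floor plate and -0.05, -0.07 and -0.37 in ventral lateral replicates 1 to 3 on 1426938_at, the 1 member probe set with all floor plate values above all ventral lateral values. The difference was 0.32 (95% interval 0.04 to 0.59, limma adjusted p = 0.23) and did not pass. On its other probe set, 1452245_at, floor plate replicate 1 stood at 0.58 and the other 5 arrays between -0.06 and 0.12, so the difference of 0.19 rested on that array. Without it the difference was -0.0031. Nova2 had differences of -0.06 and -0.34 on its 2 probe sets (limma adjusted p of 0.84 and 0.34).

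For Ptbp2, a splicing repressor of immature neurons, the probe sets were at odds although both came from 1 record. On 1423471_at the values were -0.12, -0.09 and -0.18 in floor plate and 0.23, 0.28 and 0.09 in ventral lateral replicates 1 to 3. The regions did not overlap and the spread was small, and the difference was -0.33 (95% interval -0.55 to -0.11, limma adjusted p = 0.12). On 1423470_at the regions overlapped and the difference was 0.05 (limma adjusted p = 0.91). Neither passed. The relative Ptbp1 had differences of -0.05, 0.06 and 0.11 on its 3 probe sets, none past the threshold (limma adjusted p of 0.85 to 0.90).

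Broadly expressed relatives were measured beside the members, and the groups of genes were not tested against each other. Of 24 probe sets of Elavl1, Celf1, Celf2, Ptbp1 and Ptbp3, 2 passed as higher in floor plate and 0 as lower in limma (4 and 2 at an unadjusted p under 0.05), with a median difference of -0.03. Wholly lower values in floor plate were seen for 3 of the 24 and wholly higher values for 5, against 11.0% and 11.5% of all probe sets. The count of higher ones was 1 when floor plate replicate 1 or 2 or ventral lateral replicate 1 was left out and 4 with array weights, and 0 of the 5 genes passed on the mean of their probe sets. Celf2, a CELF splicing regulator of many tissues, rose by 0.92 on 1439777_at (limma adjusted p = 0.0039), with floor plate values of 0.32, 0.53 and 0.47 against -0.32, -0.54 and -0.57. The other 6 Celf2 probe sets did not pass and ran from -0.14 to 0.42. Celf1 rose by 0.68 on 1427413_a_at (limma adjusted p = 0.016), while its other 4 probe sets did not pass and had negative differences, down to -0.37. Elavl1, the ubiquitous Elav-like gene, had 6 probe sets between -0.43 and 0.05, none past the threshold.

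Differences between genes of a family were taken on the same array from the mean of each gene's probe sets, for all 25 pairs within the 4 families. In 17 pairs the regions did not overlap. Each had an exact two-sided permutation p of 0.1, the smallest that 3 against 3 can give, and 0.15 after Benjamini-Hochberg adjustment, so no pair could pass. The pairs share genes and were chosen after values were seen, so the 17 are not separate results. The share over pairs of all genes was not taken. For single probe sets it was 22.4%. Elavl2 minus Elavl4 was -0.30 ± 0.23 in floor plate and 0.42 ± 0.19 in ventral lateral arrays (SD, n = 3 each). Elavl2 minus Elavl3 was -0.21 ± 0.02 against 0.16 ± 0.07, the tightest of these contrasts within floor plate. Celf2 minus Celf5 was 0.81 ± 0.18 against -0.58 ± 0.21, the largest contrast among the 25. Ptbp1 minus Ptbp2 overlapped between the regions (0.08 ± 0.11 against -0.11 ± 0.25, exact permutation p = 0.4).

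**Figure D3:**
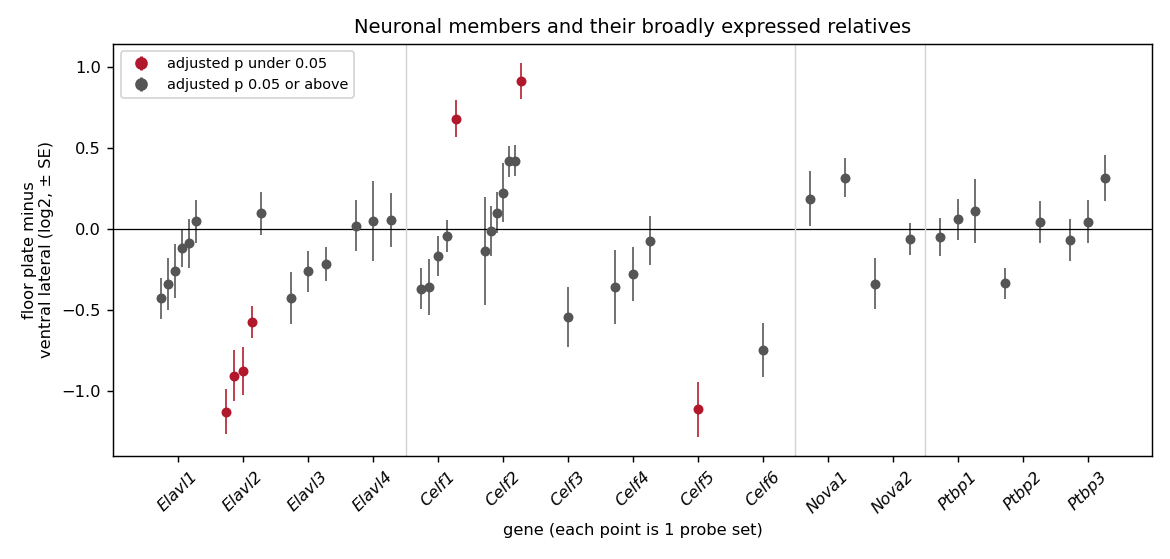
Difference between the regions (floor plate minus ventral lateral, log2 ± SE, y axis) for every probe set of the members and of their broadly expressed relatives (x axis, by family), red where the adjusted p was under 0.05. Red points lie below 0 for Elavl2 and Celf5 and above 0 for 1 probe set each of Celf1 and Celf2.

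Most member probe sets shared the highest floor plate array and the lowest ventral lateral array. Floor plate replicate 2 was the highest floor plate array for 20 of the 23 member probe sets, and ventral lateral replicate 3 was the lowest of its region for 21. The lowest floor plate array was replicate 1 for 11 and replicate 3 for 12. These counts were not taken over all probe sets. The mean over the 10 genes was -0.29, -0.02 and -0.28 in floor plate and 0.35, 0.16 and -0.0017 in ventral lateral replicates 1 to 3. Floor plate replicate 2 and ventral lateral replicate 3 thus came close to each other. Without floor plate replicate 2 the count of lower member probe sets was 5, and without ventral lateral replicate 3 it was also 5.

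Markers of newborn neurons, genes of the neuronal cytoskeleton, secretory vesicles and neuronal transcription factors, had the same order of arrays within each region except between floor plate replicates 1 and 3. Their mean over 28 genes was -0.24, -0.10 and -0.31 in floor plate and 0.40, 0.23 and 0.05 in ventral lateral replicates 1 to 3. Of their 66 probe sets 20 passed as lower in floor plate and 0 as higher in limma (40 and 1 at an unadjusted p under 0.05), with a median difference of -0.47. Onecut2, a transcription factor gene, fell by 1.60 and 1.60 on its leading 2 probe sets, and Syt1, the calcium sensor of synaptic vesicles, fell by 1.10 (limma adjusted p = 0.019). Floor plate values were wholly lower on 37 of the 66 and wholly higher on 3, against 11.0% and 11.5% of all probe sets. Nhlh1 (0.59) and Nhlh2 (0.30), named after their values were seen, had positive differences and did not pass in the main fit. The list had 1 higher call with gene means, with the replicate block and at a threshold of 0.1. With 1 array left out the count of lower calls ran from 7, without floor plate replicate 1, to 19. Leaving out floor plate replicate 3 gave 8. Leaving out ventral lateral replicate 1 gave 10, and replicate 2 gave 12. What part the share of neurons in the dissected pieces had in the members' differences was not tested.

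**Figure D4:**
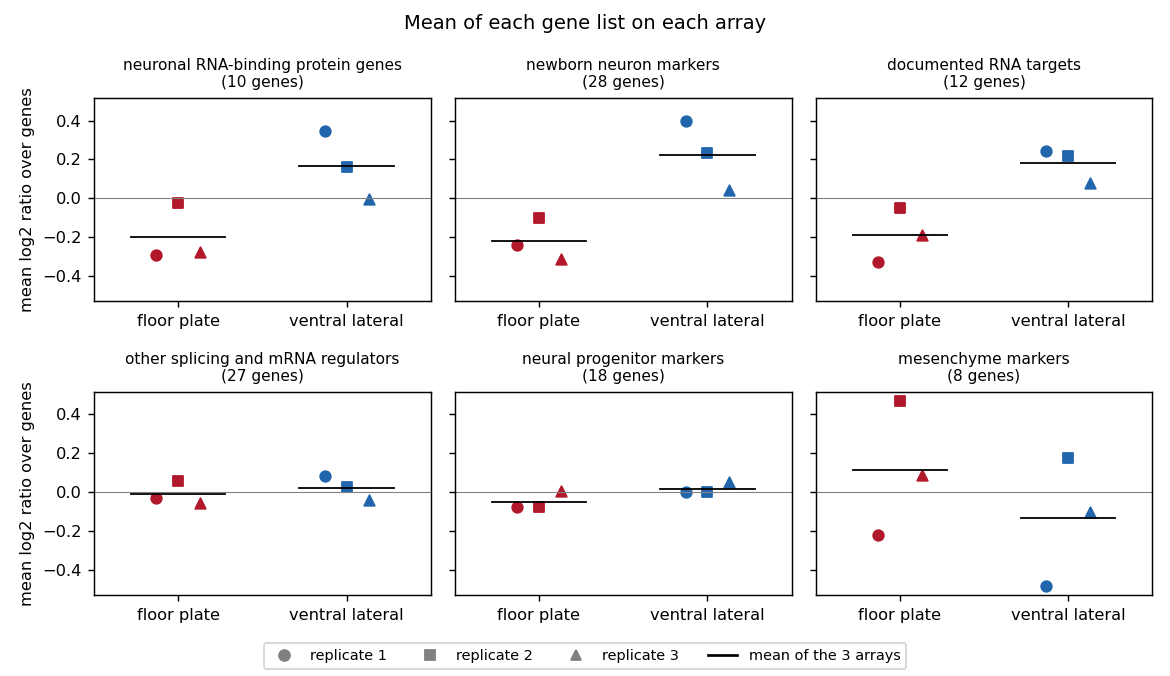
Mean log2 ratio over the genes of 6 lists (y axis) on each array (x axis, by region), with symbols for replicates 1 to 3 and a bar for the mean of the 3 arrays. The members and the newborn neuron markers are both highest in ventral lateral replicate 1 and, among floor plate arrays, in replicate 2. The mean of the progenitor markers stays between -0.08 and 0.05, although single probe sets passed in both directions (4 higher and 6 lower).

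Marker RNA of several neuron classes differed between the pieces, with differences of both signs within some lists. GABAergic neuron markers passed as lower on 13 of 17 probe sets, led by Six3, a homeobox gene (-4.79), and Gad1, a GABA-synthesising enzyme (-4.56). Dopaminergic neuron markers passed as higher on 5 of 13 and lower on 1 in limma (8 and 3 at an unadjusted p under 0.05). Th was at 3.57, Nr4a2 at 1.90 and Ddc at -0.63. Of the 5 higher calls 4 were probe sets of Nr4a2 and 1 was of Th. The genes without a call, named after their values were seen, were Slc18a2 (-0.895), Slc6a3 (-0.34), En1 (1.67) and Pitx3 (0.40). The count of higher calls was 2 when floor plate replicate 3 or ventral lateral replicate 1 was left out and 3 for ventral lateral replicate 3. The lower call, of Ddc, was lost in all fits that left out a sample except that without ventral lateral replicate 2, where the list had 1 lower call. Markers of other ventral neurons passed as lower on 5 of 12, with Lhx1 at -3.02 and Pou4f1 at -2.27, and as higher on 0 in limma (5 and 3 at an unadjusted p under 0.05). Isl1 (1.43 on each of its 2 probe sets) and Phox2a (1.92), named after their values were seen, had floor plate values wholly above the ventral lateral values, and 2 probe sets of this list passed as higher without ventral lateral replicate 2. Progenitor markers passed as higher on 4 of 42, led by the glutamate transporter gene Slc1a3 (2.14) and Hes1 (1.10), and as lower on 6, led by Pax6 (-3.92) and Sox1 (-2.83). Of these 6, 3 were probe sets of Pax6, which is also on the ventral lateral list, and the count was 3 when floor plate replicate 1 or 2 was left out. Progenitor markers had wholly higher floor plate values on 10 of the 42 and wholly lower values on 10, against 11.5% and 11.0% of all probe sets. Beside the differences of these lists, the members' widest difference was -1.13.

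Other regulators of splicing and translation had 1 of 83 probe sets higher and 1 lower in limma (8 and 8 at an unadjusted p under 0.05). Their median difference was 0.0080. The list was not confined to neuronal genes and also held, for example, Esrp1, Esrp2, Rbm24 and Rbm38. Wholly lower floor plate values were seen on 11 of the 83 and wholly higher values on 8, against 11.0% and 11.5% of all probe sets. Srrm3, a splicing regulator of neuronal microexons, fell by 0.50 (limma adjusted p = 0.043) on 1 of 3 probe sets, and Mbnl3, a muscleblind splicing factor, rose by 0.97 (limma adjusted p = 0.029) on 1 of 3. Among the fits that left out a sample, the list had a lower call only without floor plate replicate 2 and a higher call only without floor plate replicate 1. Srrm4, the best known microexon regulator, had differences of -0.35, -0.23 and -0.05, and Rbfox3, the source of the NeuN antigen, of -0.14, 0.03 and 0.05. None of these 6 probe sets passed. Named after their values were seen, Rbfox1 (-0.58 to -0.18), Stau2 (-0.50 to -0.12) and Khdrbs2 (-0.74) had only negative differences. Cpeb1 (0.23), Fmr1 (0.07 to 0.25) and Khdrbs3 (0.25) had only positive ones, and none of these genes had a call. Among RNA-binding proteins of progenitors 1 of 24 probe sets passed as lower, for Lin28a, a blocker of let-7 maturation (-1.55, limma adjusted p = 0.0050). Wholly lower floor plate values were seen on 7 of these 24 and wholly higher values on 1, against 11.0% and 11.5% of all probe sets. The median difference of this list was -0.10.

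Genes whose transcripts these proteins are known to bind were read for amount only, since the array does not read splicing. Of 29 probe sets of 12 such genes 7 passed as lower in floor plate and 0 as higher in limma (13 and 0 at an unadjusted p under 0.05), with a median difference of -0.37. Nrxn3, a presynaptic adhesion gene and Nova target, fell by 1.10 (limma adjusted p = 0.0023), and Mapt, which encodes tau, fell by 1.05 (limma adjusted p = 0.025). Mapt and Gap43 are also on the newborn neuron list. The count fell to 3 when floor plate replicate 1 was left out and to 3 for ventral lateral replicate 1. It was 4 when floor plate replicate 3 was left out and 4 for ventral lateral replicate 2.

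The genes whose profile over the 6 arrays was nearest to the mean profile of the members were Dclk1, Grina, Kcnn1, Tram1l1 and Nfil3, with root mean square differences of 0.038 to 0.057 on the log2 scale. Dclk1, a doublecortin-like kinase of migrating neurons, was at -0.31, -0.03 and -0.32 in floor plate and 0.32, 0.12 and 0.06 in ventral lateral replicates 1 to 3. Among the members themselves Elavl3 lay nearest to that profile (0.054), and Celf5 (0.40) and Nova1 (0.35) farthest from it.

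Of 59 probe sets of non-neural cell markers 2 were called, or 3.39%, near the 4.71% of all probe sets. Endothelial markers had 1 of 8 probe sets lower (Cldn5, -0.68), a call lost in the fits without floor plate replicate 1 or 3 or ventral lateral replicate 1 or 3, and mesenchyme markers 1 of 20 higher (Twist1, 2.11). Blood, macrophage and surface epithelium markers had none of 10, 10 and 11 past the limma threshold, and 0, 3 and 1 at an unadjusted p under 0.05. The mesenchyme mean was -0.22, 0.47 and 0.09 in floor plate and -0.48, 0.18 and -0.10 in ventral lateral replicates 1 to 3, so floor plate replicate 2, the array with the highest member values of its region, also had the highest mesenchyme mean. Its part in the members' values was not tested.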

How the data were processed

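Total RNA (5 ng per sample) was amplified with the NuGEN Ovation system, biotin-labelled and hybridised to Affymetrix arrays, per the labels' protocols. The submitters' processing notes name RMA; for its version and the genome build, the sources used here say nothing. The deposited log2 values (the log base and direction are assumed) are centred: 100% of probe sets have a median over the 6 arrays within 1e-05 of 0, so they hold no signal level, and no filter on dim probe sets could be made. Probe sets were named from GEO's platform annotation; 64 control probe sets were left out.

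Region differences came from limma 3.58.1 in R 4.3.3 (lmFit, eBayes), adjusted by Benjamini-Hochberg over 45037 probe sets; 95% intervals come from the same fit. On simulated data of that size the fit recovered 9.6% of differences of 0.5, 58.4% of 1 and 92.8% of 2. Named genes were every member probe set, in each other list up to 2 probe-set leaders in each direction among those past the threshold, Ptbp1, Elavl1, Rbfox3 and Srrm4, and the 5 genes of nearest profile; relatives named beyond these were chosen after their values were seen, as were the family pairs. The members and lists were chosen with earlier results of these data known. Same-numbered samples of the regions correlated at 0.0096 to 0.12 in their deviations, so numbers were not treated as pairs. Alternatives were normalization, probe set choice, gene-level fits, variance estimate, threshold, replicate block and leaving out each sample. Python 3.11.15 with scipy 1.17.1 gave permutation tests and motif counts.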

Additional observations from a re-analysis of the deposited data

How the results depend on the processing

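Under 18 alternatives no member probe set passed as higher in floor plate (limma), and the count of lower ones was 5 or 6 except as follows. It was 3 genes with gene means, with the probe set of largest variance and with the lowest-numbered probe set per gene, which test genes in place of probe sets, and 1 at a threshold of 0.01. Leaving out a sample gave 2 to 5 lower member probe sets, 753 to 991 higher and 510 to 743 lower probe sets in all, and a median difference of member genes of -0.39 to -0.19. Over all probe sets 679 were higher and 497 lower with the lowest-numbered probe sets, 584 and 373 at a threshold of 0.01, and 1733 and 1419 at 0.1. The replicate block left the member count at 5, with 1062 higher and 842 lower in all; 4 of 6 samples correlated best with their own number. No called value changed sign. Uncalled values near 0 did: Ptbp2 was at 0.046 on its lowest-numbered probe set, and leaving out a sample gave ranges across 0 for Celf4 1452240_at (-0.21 to 0.034), Nova1 1452245_at (-0.0031 to 0.30), Ptbp2 1423470_at (-0.025 to 0.17), Elavl2 1433052_at (-0.034 to 0.20), and Elavl4 1428741_at (-0.16 to 0.28), 1452894_at (-0.084 to 0.17) and 1450258_a_at (-0.073 to 0.24). The cause was not tested. With centred values, signal over background is unknown. An uncalled probe set may be unchanged, too dim to read, or have a difference that was missed with 3 arrays per region.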
